A study of Mus musculus with 12 samples.

Results

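The genes described here are the mitochondrial genome as a liver RNA sequencing table lists it, together with 1 nuclear copy of a mitochondrial gene. They were taken by name: every gene whose symbol begins with mt-, which gave 37 mitochondrial-encoded genes, and Gm28661, an abundant nuclear pseudogene. These 38 genes stood among 57010 in the table. They comprise 13 mRNAs, 2 rRNAs, 22 tRNAs and Gm28661. The rule goes by name and uses no difference between the groups, but the genes were chosen with earlier results of these data known.

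The study compared livers of mice given selenium-enriched Aspergillus oryzae A02, a filamentous fungus grown so as to take up selenium, with livers of untreated mice. The selenium group received the fungus by daily gavage at 0.5 mg selenium per kg body weight in saline, and the control group is labelled as having no treatment. Both groups were wild-type male C57BL/6J mice, 6 weeks old at the start, on a normal diet, and each holds 6 libraries, 1 per mouse, of 10 mice per group in the protocol. The design text gives 8 weeks of administration and the sample descriptions give 14 weeks. Fungus and selenium were given together and no library had the fungus without enrichment, so the effects of the fungus, of selenium and of gavage cannot be told apart.

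The mitochondrial genome is a small circle present in many copies per cell. It encodes subunits of the respiratory chain and ATP synthase, and the rRNAs and tRNAs of the mitochondrial ribosome's own translation. Both strands are transcribed as long polycistronic RNAs, from which tRNAs that punctuate the other genes are cut out, releasing the mRNAs and rRNAs. Liver is rich in mitochondria, and its mitochondrial mRNAs are among the most abundant transcripts in such data. Stretches of mitochondrial DNA have also been copied into nuclear chromosomes, where they remain as pseudogenes.

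Values are TPM, a transcript abundance scale whose estimates divide by transcript length and add up to the same fixed total in each library. Read depth cannot be had from TPM, so no counting error is given. The tissue label held: the summed TPM of 12 hepatocyte markers ran over 38875 to 58023 in selenium libraries and 36019 to 58570 in control libraries. The 12 libraries correlated with each other at a Pearson r of 0.935 to 0.986 across genes. Tests were made with limma on log2(TPM + 1) across 9980 genes with at least 1 TPM in at least 6 libraries, and an adjusted p under 0.05 after Benjamini-Hochberg correction counted as a call. Log2 changes are selenium minus control. In bulk liver, fewer mitochondria-rich cells and less mitochondrial RNA per cell cannot be told apart.

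Gm28661 is 1 of 7 adjacent unprocessed pseudogenes on the minus strand of chromosome 1, found by aligning annotated mouse transcripts to each other. The block repeats part of the mitochondrial genome in the same order: Gm29216 matches mt-Co1, Gm28661 matches mt-Co2, Gm10925 matches mt-Atp6, Gm28437 matches mt-Co3, Gm28438 matches mt-Nd3, Gm10222 matches mt-Nd4l and Gm28439 matches mt-Nd4. Gm28661, Gm10925, Gm28437, Gm10222 and Gm28439 are 100% identical to their mitochondrial partners over 681, 678, 783, 294 and 876 nt. Gm28438 has 1 mismatch over 345 nt and Gm29216 has 1 over 483 nt. A read that lies inside an identical stretch carries no information on which of the pair it came from, so the split of TPM between partners is the quantifier's.

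The ends of both transcripts of the pair that holds Gm28661, and of the pair that holds mt-Atp6, show how alike the partners are. Sequences are from the GENCODE M21 annotation and run 5′ to 3′, with the bases that only the mitochondrial transcript has in capitals.
mt-Co2: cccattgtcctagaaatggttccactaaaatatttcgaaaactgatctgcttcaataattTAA
Gm28661: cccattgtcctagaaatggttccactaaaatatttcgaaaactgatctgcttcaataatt
mt-Atp6: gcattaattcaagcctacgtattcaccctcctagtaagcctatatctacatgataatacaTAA
Gm10925: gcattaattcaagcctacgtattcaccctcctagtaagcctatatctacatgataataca
In both pairs the final 60 bases of the copy are shared letter for letter, and the copy stops before the last 3 bases of the mitochondrial mRNA.

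The pairs with a mismatch are shown around the base that differs, in capitals. Counted from 1 at the 5′ end of the mitochondrial transcript, with the mitochondrial base first, the difference is A1066T in the mt-Co1 and Gm29216 pair and T3C in the mt-Nd3 and Gm28438 pair. Gm29216 is shown from its own first base, and its first bases lie outside the aligned stretch.
mt-Co1: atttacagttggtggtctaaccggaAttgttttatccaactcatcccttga
Gm29216: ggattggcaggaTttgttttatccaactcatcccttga
mt-Nd3: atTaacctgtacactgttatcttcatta
Gm28438: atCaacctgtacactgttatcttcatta
Within the aligned stretches of the 7 pairs, these 2 positions are the only letters that tell a copy from its mitochondrial partner.

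The tRNA genes are shown for mt-Ts1, the only tRNA to which the authors' deposited table gives an adjusted p below 1, and for the shortest and the longest of the 22.
mt-Ts1: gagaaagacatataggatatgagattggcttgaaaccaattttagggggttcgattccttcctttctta
mt-Ts2: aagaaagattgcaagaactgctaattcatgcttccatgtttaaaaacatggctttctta
mt-Tl1: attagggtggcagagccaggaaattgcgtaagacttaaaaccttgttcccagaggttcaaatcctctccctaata
mt-Ts1 and mt-Ts2 encode the serine tRNAs of mouse mitochondria and mt-Tl1 encodes a leucine tRNA.

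**Figure D1:**
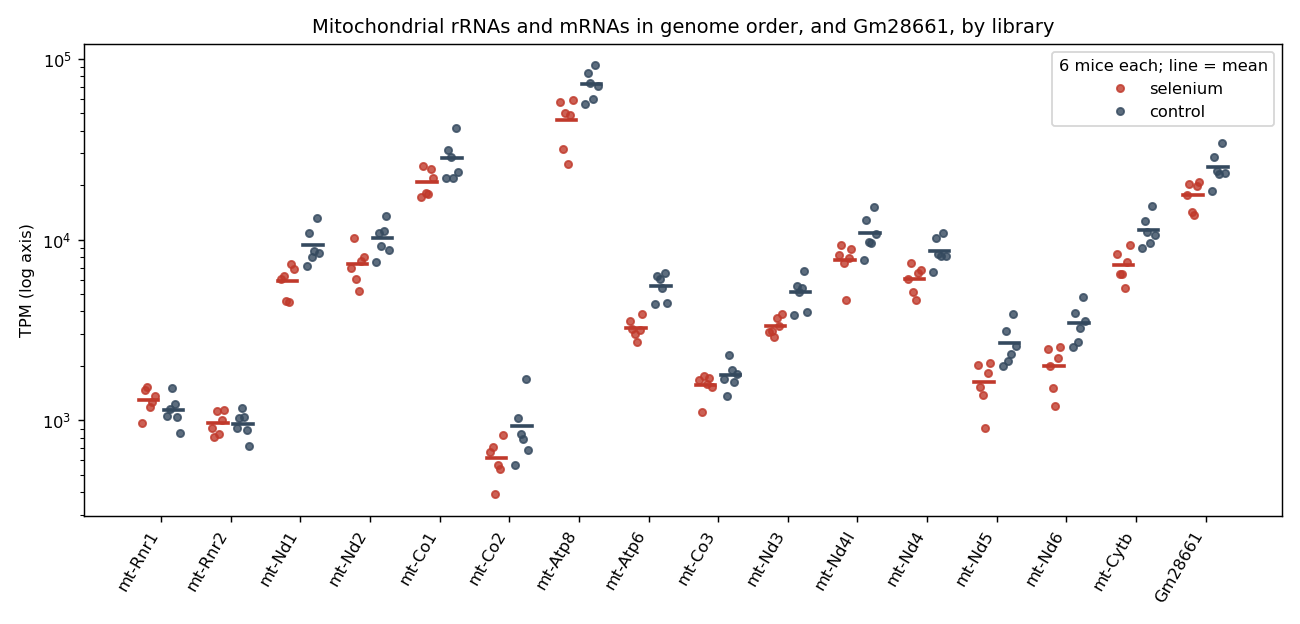
TPM on a log axis of the 2 mitochondrial rRNAs and 13 mRNAs in genome order and of Gm28661, with 1 point per library, selenium left of control, and a bar at each group mean. mt-Atp8 had the highest level and mt-Co2 the lowest, and the selenium points of mt-Atp6 and mt-Nd6 sit below all of their control points.

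All 13 mitochondrial mRNAs averaged lower in selenium livers than in control livers, and mt-Atp6 alone passed the test over all genes. Their median log2 change was -0.60, with a range of -0.82 to -0.19, beside a median of -0.03 over all 9980 genes tested. Of those genes, 31, or 0.311%, were called lower and 2, or 0.02%, were called higher, 0.331% in either direction, and 54.6% had a negative change. At an unadjusted p under 0.05, 12 of the 13 were lower, beside 11.4% of all genes tested that were lower and 7.01% that were higher at that p. The 13 mRNAs mostly varied together across libraries, so they are not independent of each other. For 2 of the 13, mt-Atp6 and mt-Nd6, every selenium library lay below every control library, beside 1.47% of all genes tested, and 0.16% had every selenium library above every control.

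The ATP synthase subunits lie next to each other and their reading frames overlap by 43 nt on the same strand. mt-Atp6, a subunit of the proton channel, fell to a lowest, median and highest TPM of 2720, 3185 and 3873 in selenium livers, against 4427, 5713 and 6517 in control livers. The groups did not overlap, and sets of 3 levels for the other genes are likewise the lowest, median and highest of 6 libraries. The log2 change was -0.76, with a standard error of 0.14 and a limma adjusted p of 0.0439, but the call depended on single libraries. It held without selenium replicate 6, control replicate 1 or control replicate 6 and was lost without any other library, with adjusted p-values of 0.0273 to 0.111. mt-Atp8, a short subunit of the same complex encoded in 204 nt, was at 26091, 49559 and 59267 TPM in selenium livers and 56279, 71903 and 92057 TPM in control livers. For mt-Atp8, 4 of 6 selenium libraries lay below the lowest control, the change was -0.71 and the adjusted p of 0.134 missed the threshold. mt-Atp8 had the highest level of the 13 in both groups, and TPM of so short a transcript depends strongly on the effective length assumed in quantification.

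The 7 complex I subunits, which belong to the NADH dehydrogenase that feeds electrons into the chain, had log2 changes of -0.82 to -0.47. None passed the adjusted threshold, and all 7 had an unadjusted p under 0.05. mt-Nd6, the only mRNA on the minus strand, was at 1192, 2112 and 2532 TPM in selenium livers, against 2558, 3389 and 4798 TPM in control livers. The gap between the highest selenium library and the lowest control was narrow, and the change of -0.82 had an adjusted p of 0.0880. Its neighbour mt-Nd5, which overlaps it by 14 nt on the opposite strand, was at 911, 1683 and 2081 TPM in selenium livers and 1998, 2451 and 3867 TPM in control livers, a change of -0.73 with an adjusted p of 0.119. No label states if reads were counted by strand. Reads of the overlap, or of any stretch of mt-Nd6 transcribed from both strands, therefore cannot be assigned. Within groups mt-Nd5 and mt-Nd6 had a Pearson r of 0.98. The ratio of mt-Nd6 to mt-Nd5 was 1.23 ± 0.0796 in selenium livers and 1.30 ± 0.0631 in control livers (SD, n = 6 each).

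mt-Nd3 was at 2876, 3218 and 3865 TPM in selenium livers and 3847, 5255 and 6713 TPM in control livers. Only the highest selenium library reached into the control range, and the change of -0.60 had an adjusted p of 0.0853. mt-Nd1 was at 4512, 6172 and 7334 TPM in selenium livers and 7159, 8529 and 13232 TPM in control livers, with a change of -0.65 and an adjusted p of 0.105. For mt-Nd1, 5 of 6 selenium libraries lay below the lowest control. mt-Nd4 was at 4622, 6295 and 7387 TPM in selenium livers and 6579, 8202 and 10820 TPM in control livers, with a change of -0.51 and an adjusted p of 0.131. mt-Nd4l, whose end overlaps the start of mt-Nd4 by 7 nt, was at 4646, 8069 and 9308 TPM in selenium livers and 7688, 10169 and 15129 TPM in control livers, with a change of -0.50 and an adjusted p of 0.206. For mt-Nd4l, 2 of 6 selenium libraries lay below the lowest control. mt-Nd2 was at 5210, 7286 and 10260 TPM in selenium livers and 7491, 10049 and 13456 TPM in control livers. It had a change of -0.47 with an adjusted p of 0.197, and 3 of its 6 selenium libraries lay below the lowest control.

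mt-Cytb, the cytochrome b of complex III, was at 5422, 7011 and 9286 TPM in selenium livers, against 8967, 10846 and 15271 TPM in control livers. Selenium replicate 6 was the single selenium library inside the control range. The change was -0.65 and the adjusted p 0.0928.

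The 3 catalytic core subunits of cytochrome c oxidase, complex IV, included the mRNA with the smallest change. mt-Co1 was at 17160, 19930 and 25695 TPM in selenium livers and 21894, 26094 and 41221 TPM in control livers, a change of -0.41 with an adjusted p of 0.258. mt-Co2 was at 389, 615 and 832 TPM in selenium livers and 567, 811 and 1684 TPM in control livers, a change of -0.54 with an adjusted p of 0.255. mt-Co3 was at 1110, 1624 and 1755 TPM in selenium livers and 1365, 1745 and 2311 TPM in control livers, and 5 of its 6 selenium libraries lay inside the control range. Its change of -0.19, with a 95% interval of -0.51 to 0.13 and an adjusted p of 0.531, was the weakest of the 13 rows. Most TPM of the mt-Co3 sequence was listed under its copy Gm28437, and the change of both summed was -0.55.

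**Figure D2:**
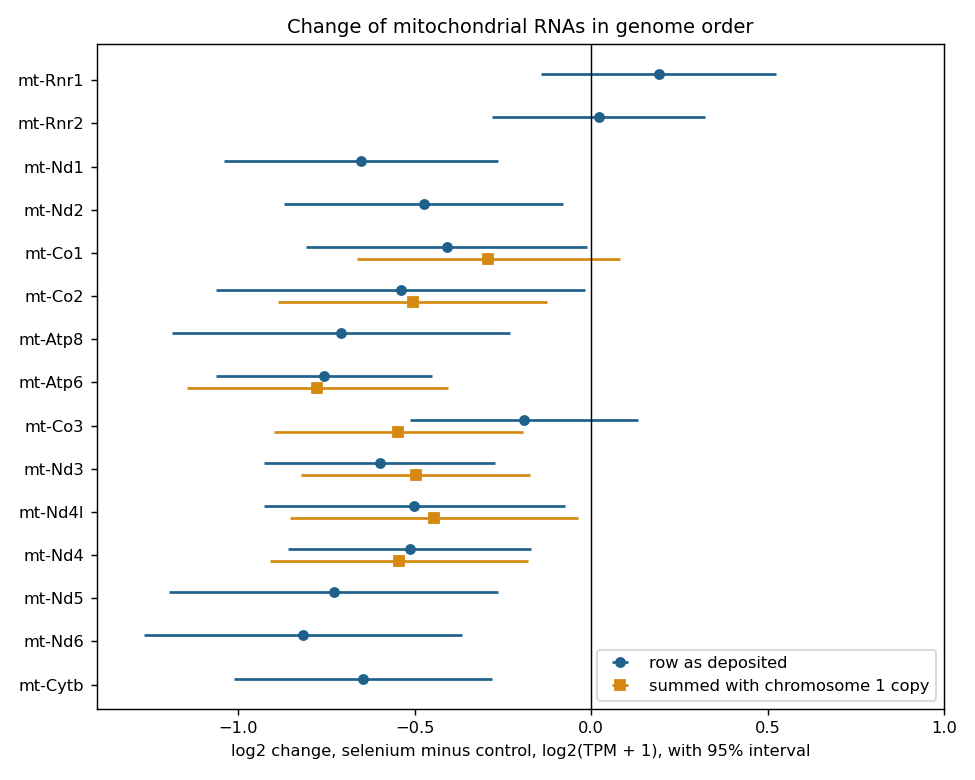
Log2 change of the mitochondrial rRNAs and mRNAs, selenium minus control, with its 95% interval, in genome order. Circles are rows as deposited and squares are the 7 mRNAs summed with their chromosome 1 copy; every mRNA estimate lies below 0, and mt-Co3 moves from -0.19 to -0.55 when summed.

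The authors' deposited table, which gives its fold changes as control over selenium, has positive values for all 13 mRNAs, the same direction as here. By adjusted p under 0.05 in the authors' deposited table, 5 of the 13 are called, beside 2.9% of the 9980 genes called lower in selenium by those values. These are mt-Atp6 at 0.00248, mt-Atp8 at 0.0241, mt-Nd3 at 0.0370, mt-Cytb at 0.0400 and mt-Nd6 at 0.0404 in the authors' deposited table.

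The 2 rRNAs of the mitochondrial ribosome did not average lower in selenium livers. mt-Rnr1, the small subunit rRNA, was at 961, 1311 and 1531 TPM in selenium livers and 845, 1110 and 1511 TPM in control livers. mt-Rnr2, the large subunit rRNA, was at 804, 958 and 1140 TPM in selenium livers and 724, 970 and 1166 TPM in control livers. The groups overlapped almost fully for both. The changes were 0.19, with an interval of -0.14 to 0.52 and an adjusted p of 0.546, and 0.02, with an interval of -0.28 to 0.32 and an adjusted p of 0.959. The sign for mt-Rnr2 turned negative in both rescalings that left out mitochondrial genes and stayed positive with the other scalings run. After the correction for GC content the changes were larger, 0.50 for mt-Rnr1 and 0.34 for mt-Rnr2, with adjusted p-values of 0.127 and 0.118. With TPM rescaled without Mup genes mt-Rnr1 had a change of 0.37, with an adjusted p of 0.148. The rRNAs lie ahead of the mRNAs on the plus strand, and neither had more than 1531 TPM in any library, although rRNA is the bulk of mitochondrial RNA in cells. The labels do not say if polyadenylated RNA was selected or rRNA removed before sequencing, so these levels cannot be read as rRNA content.

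As a share of all TPM, the rRNAs held 0.227 ± 0.0291% in selenium livers and 0.210 ± 0.0374% in control livers (SD, n = 6 each). The rRNA sum relative to the summed mRNAs and copies was 1.37 ± 0.247% in selenium livers and 0.869 ± 0.209% in control livers, and 5 of 6 selenium libraries lay above the highest control. No test was made on this ratio. Across the 12 libraries, with each group's mean removed, mt-Rnr1 and mt-Rnr2 correlated with each other at a Pearson r of 0.69. Their r to the mean of the 13 mRNAs was -0.02 for mt-Rnr1 and 0.18 for mt-Rnr2. All of these points share the libraries and the fixed TPM total.

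All 22 tRNAs, which are 59 to 75 nt long, were listed at 0 TPM in every library. They lie 14 on the plus strand and 8 on the minus strand, between and beside the mRNAs and rRNAs described above, whose mRNAs all had high TPM. A length-normalised estimate for a transcript shorter than a sequenced fragment can fail, and a listed 0 says nothing of how much tRNA the livers held. The authors' deposited table nevertheless gives a fold change other than 0 for 14 of the 22, of which 10 are positive as control over selenium and 4 negative. For mt-Ts1 the authors' deposited table gives a log2 fold change of 0.41 as control over selenium, lower in selenium, with a p of 0.222 and an adjusted p of 0.487. The other 21 have an adjusted p of 1 there. Among all genes, 30831 were at 0 TPM in every library, and 206 of them have a fold change other than 0 in the authors' deposited table. No tRNA entered the test used here.

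Gm28661 was the most abundant of the chromosome 1 block. It was at 13712, 18796 and 20920 TPM in selenium livers, against 18572, 23718 and 34430 TPM in control livers. The groups overlapped, and 3 of 6 selenium libraries lay below the lowest control. The log2 change was -0.50, with an interval of -0.88 to -0.13 and an adjusted p of 0.162. It held 96.6 ± 0.573% of the summed TPM of Gm28661 and mt-Co2 in selenium livers and 96.6 ± 0.648% in control livers. Nearly all TPM of the mt-Co2 sequence was thus listed under the nuclear pseudogene in both groups. Among all genes tested, those closest to Gm28661 across the 12 libraries, with group means removed, were mt-Nd4, mt-Nd1, mt-Nd4l, mt-Nd2 and mt-Nd6, with r of 0.97, 0.96, 0.89, 0.88 and 0.87. mt-Co2 itself had an r of 0.87. These are descriptions across libraries that share the TPM total.

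**Figure D3:**
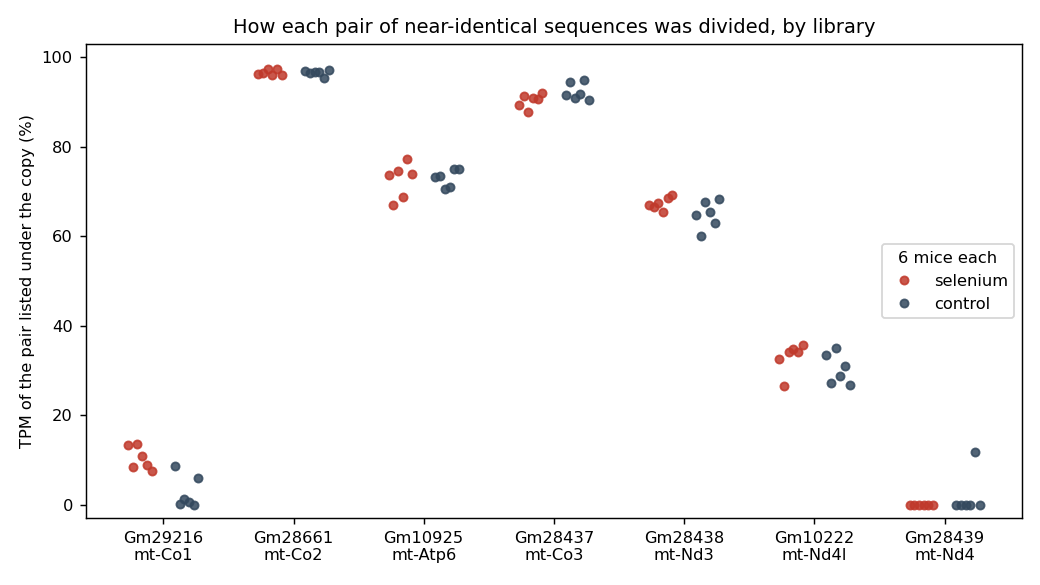
Share, in percent, of the summed TPM of each pair that is listed under the chromosome 1 copy, 1 point per library, selenium left of control. Gm28661, Gm28437, Gm10925 and Gm28438 hold most of their pair, Gm10222 about 30%, Gm29216 under 15% and Gm28439 is at 0 except in 1 control library.

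The other copies were not uniform. Gm10925, the partner of mt-Atp6, was at 5978 to 11041 TPM in selenium livers and 12156 to 19550 TPM in control livers, without overlap, a change of -0.79 with an adjusted p of 0.0721. Gm28437 had a change of -0.58 with an adjusted p of 0.119, and 5 of its 6 selenium libraries lay below the lowest control. Gm28438 had a change of -0.44 with an adjusted p of 0.158. Gm10222 had a change of -0.32 with an adjusted p of 0.380. Of the 6 copies tested, 5 had a negative change and none passed the threshold, beside 0.311% of all genes called lower. The copy with an adjusted p under 0.05 in the authors' deposited table is Gm10925, at 0.0197.

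Gm29216, the partial copy of mt-Co1, went the other way. Its TPM was 1779, 2209, 2375, 2449, 2635 and 2870 in the selenium livers and 38.1, 75.6, 153, 398, 1526 and 2090 in the control livers. The selenium libraries sat close together, and the control libraries spread widely and reached into the selenium range. The log2 change was 3.03, with an interval of 1.31 to 4.75 and an adjusted p of 0.0928, and without control replicate 6 the adjusted p was 0.0429. Its share of its pair with mt-Co1 was 10.5 ± 2.59% in selenium livers and 2.86 ± 3.63% in control livers, and within groups Gm29216 and mt-Co1 had an r of -0.64 across 12 libraries. Gm28439, identical to the first part of mt-Nd4, was listed at 0 in 11 libraries and at 1450 TPM in control replicate 5.

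**Figure D4:**
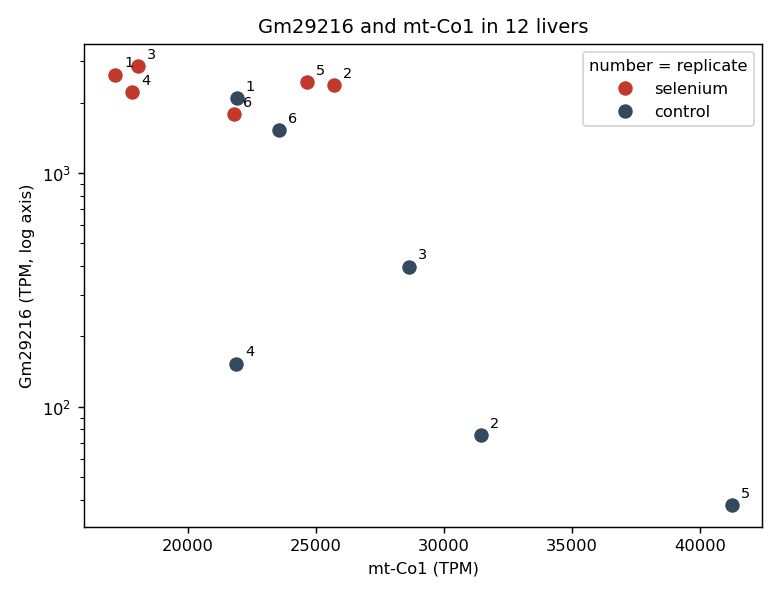
Gm29216 (TPM, log axis) against mt-Co1 (TPM), 1 point per library with its replicate number. The 6 selenium livers lie between 1779 and 2870 TPM on the vertical axis, and 4 of the 6 control livers lie below 400 TPM.

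Because reads cannot be divided between identical partners, the 7 mRNAs with a chromosome 1 copy were also summed with it. The other mRNAs kept their own rows, and the fit was repeated on 9974 genes, a choice made after the data were seen. All 13 mRNAs then had negative changes of -0.82 to -0.29, median -0.55, and 12 had an unadjusted p under 0.05. The -0.82 is mt-Nd6, which has no copy in the block. The 7 summed mRNAs ran from -0.78 for mt-Atp6 to -0.29 for mt-Co1. Rows without a copy could not change beyond the refit, so they add nothing on the split of reads. None passed the adjusted threshold, beside 0.301% of genes called lower. mt-Atp6 with Gm10925 was at 8697 to 14915 TPM in selenium livers and 16583 to 26067 TPM in control livers, with no overlap, a change of -0.78 and an adjusted p of 0.0670. The sum of mt-Co3 with Gm28437 had a change of -0.55 and an adjusted p of 0.123, against -0.19 for mt-Co3 alone. The sum of mt-Co1 with Gm29216 had a change of -0.29 and an adjusted p of 0.396.

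**Figure D5:**
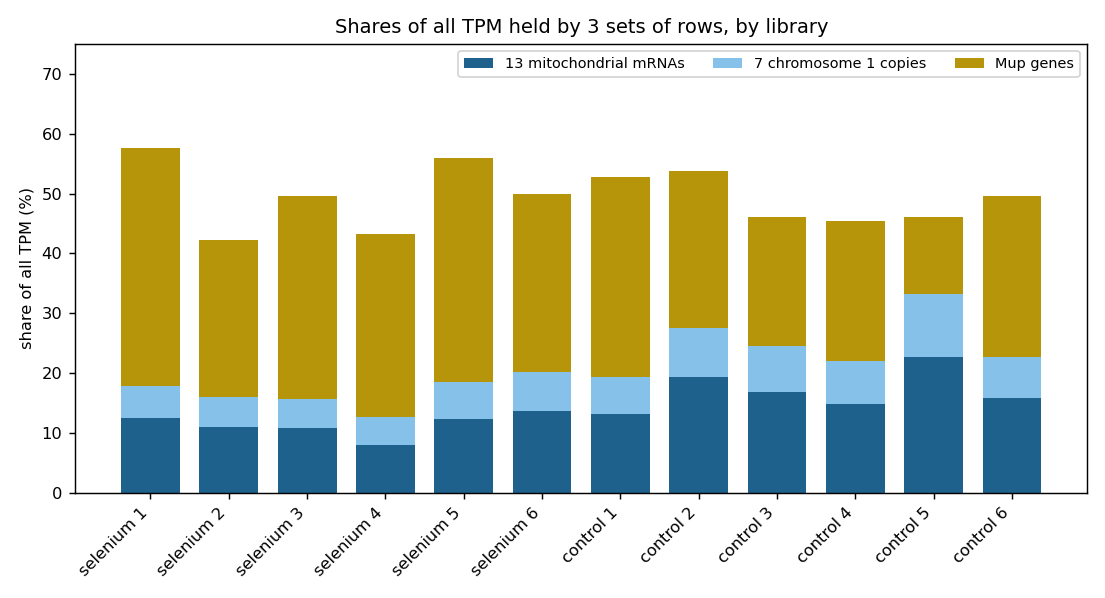
Stacked shares of all TPM, in percent, by library, for the mitochondrial mRNAs, their chromosome 1 copies and the Mup genes, selenium libraries left of control libraries. The mRNAs and copies together hold 12.6% to 20.1% in selenium livers and 19.3% to 33.1% in control livers, and the Mup genes take a larger share in selenium livers.

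Together the 13 mRNAs and 7 copies held 16.8 ± 2.61% of all TPM in selenium livers and 24.9 ± 4.91% in control livers (SD, n = 6 each), and 5 of 6 selenium libraries lay below the lowest control. No test was made on these sums. The Mup genes, which encode major urinary proteins secreted by liver, held 33.0 ± 5.07% in selenium livers and 24.1 ± 6.82% in control livers, and 3 selenium libraries lay above the highest control. Since TPM sums to a fixed total, a larger Mup share leaves less for all other genes together. A smaller mitochondrial share likewise leaves more for the rest, and from shares alone these cannot be told apart. Over the TPM outside Mup genes, the mRNAs and copies held 25.2 ± 4.79% in selenium livers and 32.6 ± 4.13% in control livers, with 4 of 6 selenium libraries below the lowest control. With TPM rescaled without Mup genes the 13 changes stayed negative, at -0.64 to -0.01, with a median of -0.42 where the median of all genes was 0.12. Of the 13, 8 then had an unadjusted limma p under 0.05, and the share of all genes at that p was not computed for this fit. The part of the Mup share in the lower mitochondrial values was not tested further.

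The order of levels within the mitochondrial mRNA pool was nearly the same in both groups. Ordered by the TPM of each locus, mRNA with its copy, both groups ran mt-Atp8, mt-Co1, mt-Co2, mt-Co3, mt-Atp6, mt-Nd4l and mt-Nd3, then mt-Cytb, mt-Nd2, mt-Nd4 and mt-Nd1 in varying order, then mt-Nd6 and mt-Nd5. Neighbours in this order overlapped in range, except mt-Atp8 above mt-Co1 in control livers and the step down to mt-Nd6 in both groups. mt-Atp6 with its copy held 7.18 ± 0.586% of the summed 13 loci in selenium livers and 8.32 ± 0.335% in control livers, the only locus whose groups did not overlap. Within groups, pairs of the mRNA rows without their copies correlated at a Pearson r of -0.50 to 0.98, median 0.71, over 78 pairs and 12 libraries. mt-Co3 was the mRNA behind the lowest value. Of the mt-Co3 pair, 90.4% of TPM in selenium livers and 92.4% in control livers was listed under Gm28437. The r of the mt-Co3 row therefore describes the small part left to it. Outside the 38 genes, so with Gm28661 left out, those most like the mean of the 13 mRNAs were Gm10222 and Gm10925, both copies of the block, with r of 0.87 and 0.82, then Gm12909 at 0.81 and Cibar1 at 0.77. GC content of the 13 mRNAs ran from 31.9% to 41.1%, where the median tested gene had 49.2%. After a loess correction of each library for GC content the 13 changes stayed negative, at -0.48 to -0.0037, with a median of -0.34. Of the 13, 3 then had an unadjusted limma p under 0.05, and the share of all genes at that p was not computed for this fit. The part of GC content in the lower values was not tested beyond this.

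Nuclear genes that act on mitochondrial DNA and RNA were read against the 0.331% of all tested genes that were called, and the 7.01% higher and 11.4% lower at an unadjusted p under 0.05. At such a share, lists of this size give few calls or none, and their counts of 0 are no result about the lists. Of 18 tested genes of mitochondrial DNA transcription and replication, 0 passed in either direction by limma, with a median change of -0.07, and 1 was higher and 3 were lower at an unadjusted p under 0.05. Ssbp1, which coats single-stranded mitochondrial DNA, was at 18.2 ± 3.07 TPM in selenium livers and 26.6 ± 3.23 TPM in control livers, with an adjusted p of 0.0681. Of 30 genes of mitochondrial RNA processing, stability and decay, 0 passed, with a median of -0.03, and 2 were higher and 3 lower at an unadjusted p under 0.05. Slirp, which stabilises mitochondrial mRNAs together with Lrpprc, was at 7.52 ± 2.13 TPM in selenium livers and 11.7 ± 1.43 TPM in control livers, with an adjusted p of 0.0961. Of 20 mitochondrial aminoacyl-tRNA synthetase genes, 0 passed by limma, and 4 were higher and 2 lower at an unadjusted p under 0.05. Kars, the lysyl-tRNA synthetase, was at 21.9 ± 6.13 TPM in selenium livers and 12.7 ± 3.12 TPM in control livers, with an adjusted p of 0.107. Lars2 went the other way, at 16.2 ± 4.56 TPM in selenium livers and 27.9 ± 12.6 TPM in control livers, with a limma adjusted p of 0.189. In this list 13 genes had a positive change and 7 a negative one. Of 26 genes of rRNA and tRNA modification, 23 of mitochondrial translation, 14 regulators of mitochondrial biogenesis and 26 of matrix enzymes and other mitochondrial proteins, 0 passed in any list by limma. The medians were -0.02 to 0.06, and 1, 2, 4 and 3 genes had an unadjusted p under 0.05. The last list also holds complex II subunits, outer membrane channels, protein import subunits and chaperones.

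The nuclear-encoded subunits of the same complexes gave list medians nearer to 0, while single genes overlapped the range of the mitochondrial mRNAs. Ndufb4, a complex I subunit, had a change of -0.44, and Uqcrb, of complex III, had -0.41. Of 36 complex I genes, 28 had a negative change, with a median of -0.14, 0 passed and 3 had an unadjusted p under 0.05. Of 12 complex IV genes, 11 had a negative change, with a median of -0.12, 0 passed and 2 had an unadjusted p under 0.05. Of 15 ATP synthase genes the median was -0.05, and of 9 complex III genes it was 0.02, with 0 passing in both lists and 2 and 1 at an unadjusted p under 0.05. The medians of these lists stand beside the -0.60 of the 13 mitochondrial mRNAs and the -0.03 of all genes, and the difference between lists was not tested.

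Of a list of 13 nuclear noncoding and non-polyadenylated RNAs, 8 were tested and 3 were at 0 in every library. All 8 tested had negative log2 changes, beside 54.6% of all genes tested, with a median of -0.58. Rn7s1 and Rn7s2 among them have the same values, so 1 measurement counts for both. In this list 1, Malat1, a long nuclear RNA, was called, beside 0.331% of all genes tested. Malat1 fell to 8.39 ± 2.38 TPM in selenium livers, against 37.1 ± 16.5 TPM in control livers, with a limma adjusted p of 0.0113. Every selenium library lay below every control library for Malat1, beside 1.47% of all genes tested. Whether these nuclear RNAs and the mitochondrial mRNAs share a source of difference was not tested. Summed marker levels overlapped between groups for each of 7 liver and blood cell types, and no marker was at 0 in every library. Kupffer cell markers, of which 9 of 10 had a positive change, were at 77.2 to 446 TPM in selenium livers and 110 to 377 TPM in control livers. The 9 stellate cell markers summed to 19.3 to 77.4 TPM in selenium livers and 49.8 to 72.0 TPM in control livers, and all 4 tested had a negative change. Negative changes were also found for 2 of 2 tested markers of cholangiocytes and 2 of 2 of lymphocytes and neutrophils. They were found for 4 of 5 of red blood cells, 4 of 6 of sinusoidal endothelial cells and 5 of 12 of hepatocytes. Of all genes tested, 54.6% had a negative change. The part of cell types in the mitochondrial values was not tested.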

How the data were processed

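The authors deposited TPM per gene and library, and the submitters' processing notes name HISAT2 2.1.0, RSEM 1.2.8, DESeq2 and the GRCm39 build. The authors deposited a log2 fold change, as control over selenium, with its p-value and adjusted p-value columns. Each mouse is 1 library, so p-values measure the spread between mice. The labels give no pairing of mice across groups by replicate number. With group means removed, same-numbered libraries correlated at -0.14 to 0.11, which cannot decide if mice shared a cage or a day.

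TPM were tested as log2(TPM + 1), which understates changes of low genes, with limma 3.58.1 in R 4.3.3, with an intensity trend and no covariates, two-sided, over 9980 genes with at least 1 TPM in at least 6 libraries. Benjamini-Hochberg adjustment ran over all of them, at a threshold of 0.05, and the procedure was tested on simulated data. Copies were found with blastn 2.17.0 among GENCODE M21 transcripts, at 95% identity over 80% of the length. GENCODE M21 is on another build than the files, so no coordinates are given. Figures were drawn with matplotlib 3.10.9.

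The members and gene lists were chosen with earlier results of these data known. Named genes were all 38 members, matched copies, list genes past the threshold or else of smallest p, and the 5 genes most like the mRNA mean and Gm28661. Of these last genes, 1 is not reported here. Copies matched outside the chromosome 1 block, Gm13341, Gm13340, Gm4076 and Gm13339, were low and are not described. Of the genes this names in the lists, those not described had no call. Lars2 is outside this rule and was described beside Kars as a gene that went the other way. Alternatives covered the pseudocount, filter, scaling, limma settings, replicate block, GC content, Dbp level and leaving out each library.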

Additional observations from a re-analysis of the deposited data

Results flagged for a closer look

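In each group of 6 libraries the highest and the lowest value were compared with the nearest other value, by Dixon's test, for levels, shares and ratios of the mitochondrial genes and copies. Of 105 such groups, 8 had a library that stood apart, and chance gives about 1 in 20.

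Selenium replicate 2 had 1110 TPM of mt-Co3, where the other 5 selenium libraries had 1534 to 1755. In the same library mt-Nd2 held 6.44% of the summed 13 loci, where the others had 3.87% to 4.12%, and mt-Nd4 held 4.64%, where the others had 3.28% to 3.66%. Selenium replicate 4 held 13.9% of the 13 loci in mt-Co3, where the others had 8.12% to 9.98%, and 8.46% in mt-Nd3, where the others had 5.22% to 6.27%.

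Among control libraries, replicate 4 held 5.07% in mt-Nd2, where the others had 3.78% to 4.06%. Control replicate 3 had a ratio of mt-Rnr1 to mt-Rnr2 of 1.30, where the others had 1.13 to 1.17. Control replicate 5 alone had a value above 0 for Gm28439, at 1450 TPM.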

How the results depend on the processing

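All 13 mRNAs had a negative change in all 28 alternatives run, 364 of 364 values, and the median of the 13 ran from -0.75 to -0.34. These values are not independent. The alternatives refit the same libraries, and the mRNAs mostly varied together within groups, at a median Pearson r of 0.71. Scaling moved the median of all genes to -0.12 with TPM rescaled without the members, -0.15 without the members and the other copies, and 0.12 without Mup genes, and relative to all genes the median of the 13 ran from -0.64 to -0.33 over the alternatives. The number of mRNAs called lower, 1 as reported, was 0 with no filter, median-of-ratios scaling, quantile normalization, the replicate block, the 8 libraries with Dbp under 10 TPM, the GC correction, mRNAs summed with copies and TPM rescaled without Mup genes. It was 2 with TPM rescaled without the members and 5 also without the other copies, and 0 to 1 when each library was left out. At an unadjusted limma p under 0.05, 12 mRNAs were lower as reported, beside 11.4% of all genes tested. That count was 3 with the GC correction, 6 with quantile normalization and 7 with no filter. It was 8 without Mup genes and with the low-Dbp libraries, and 13 without the members and the other copies. The share of all genes at that p was not computed for the alternatives, and scaling moved all genes too. These counts therefore have no background and are no result about the mRNAs. Summing with copies, rescaling also without the other copies and rescaling without Mup genes were chosen after seeing the data. The number of genes called, 33 as reported, was 1 with no filter, 12 with quantile normalization, 221 without the members, 373 also without the other copies, 6 without Mup genes, 56 with robust empirical Bayes, 255 with array weights, 53 with the GC correction, 3 with the replicate block, and 7 to 171 when each library was left out. Of the calls, 114 were higher and 141 lower with array weights, 34 and 13 with the 8 low-Dbp libraries, 12 and 41 with the GC correction, and 56 and 115 without control replicate 6. mt-Atp6 passed in 11 of 28 alternatives, and its adjusted p ran from 0.0245 to 0.153. When 1 library was left out it passed without selenium replicate 6, control replicate 1 or control replicate 6. mt-Rnr2 turned negative with TPM rescaled without the members, at -0.093, also without the other copies, at -0.129, with array weights, at -0.0040, and with the low-Dbp libraries, at -0.098, and ran from -0.057 to 0.080 when each library was left out. In the other direction it was 0.34 with the GC correction, where mt-Rnr1 was 0.50, and 0.20 without Mup genes, where mt-Rnr1 was 0.37. The cause of these changes was not tested. No result for the tRNAs could be recomputed, since all are at 0 TPM. Same-numbered libraries did not vary together, 0 of 6 correlating best with its own number. The labels give no pairing, so it is not known if the replicate block stands for a design. Gm29216 passed in 1 fit, without control replicate 6, at an adjusted p of 0.0429. Precision is limited by 6 mice per group and by TPM, which holds no depth.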
